A study of Mus musculus with 10 samples.

Results

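The neurons described are the 62 cells that carry cluster number 10 in the cell annotation deposited with the series, out of 706 annotated cells. They made up 8.78% of all cells and 9.34% of the 664 cells in the 12 clusters of the paraventricular hypothalamus (PVH). Members were chosen by that cluster number alone. The deposited clusters were themselves built from gene expression of these cells, so differences in gene expression between cluster 10 and the rest describe the cluster and are not independent evidence for it. The marker genes *Crh* and *Scgn* were used to check the name.

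The series holds 10 plates of single cells picked by hand from the PVH of male mice (Agrp-IRES-Cre crossed to the Ai9 reporter, more than 7 weeks old), in which the reporter-filled axons of AGRP neurons mark the edge of the nucleus. All plates belong to 1 group, and no condition was compared. Slices were kept in blockers of action potentials and glutamate receptors (TTX, APV and DNQX) and digested with pronase before picking, so every cell in the data went through the same handling. The plate was the replicate. By name there were 4 Q, 2 AL and 4 JM plates, and which animal gave which cell is not stated. RNA was counted as unique molecular identifiers (UMIs), and levels are CPM, the UMIs of a gene scaled by the total UMIs of the cells summed on a plate.

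Neurons that make corticotropin-releasing hormone sit at the top of the stress axis. The peptide is released from their terminals into the portal blood of the pituitary, where it drives secretion of ACTH, and ACTH in turn drives release of glucocorticoids from the adrenal cortex. Glucocorticoids act back on these same neurons through the glucocorticoid receptor, encoded by *Nr3c1*. Vasopressin, encoded by *Avp*, can be made in the same neurons and strengthens the effect of the peptide on the pituitary. *Scgn* encodes secretagogin, an EF-hand calcium sensor that takes part in hormone release.

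The peptide that names the cluster is encoded at the end of the *Crh* coding sequence, in the last exon of a gene of 187 codons (GENCODE vM21, GRCm38, minus strand of chromosome 3, gene at 19693401-19695396). The stretch is shown because its counts define the name of the cluster. It holds the 41 codons of the mature peptide in lower case, followed in capitals by the 2 codons for glycine and lysine, which are used up when the end of the peptide is amidated. It lies at chr3:19693916-19694044.

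Crh peptide: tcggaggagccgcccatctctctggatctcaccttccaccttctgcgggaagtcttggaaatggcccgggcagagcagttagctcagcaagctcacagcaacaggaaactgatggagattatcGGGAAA

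*Scgn* was the only gene in the count table that was detected in over 40% of the cells of cluster 10 and in under 5% of the other PVH cells. The 250 bases before a start site of the gene at 23991214, where 1 GENCODE transcript also begins, are shown. They hold the AP-1 motif TGANTCA, which proteins of the Fos and Jun families bind. Whether such proteins act on *Scgn* was not tested. The stretch is from RefSeq on GRCm38.p6, minus strand, chr13:23991215-23991464. The RefSeq span of the gene reaches to 23991327, so 113 of these bases lie inside it. The capitals mark the motif, which lies beyond that span and starts at position -191 counted from 23991214.

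Scgn upstream: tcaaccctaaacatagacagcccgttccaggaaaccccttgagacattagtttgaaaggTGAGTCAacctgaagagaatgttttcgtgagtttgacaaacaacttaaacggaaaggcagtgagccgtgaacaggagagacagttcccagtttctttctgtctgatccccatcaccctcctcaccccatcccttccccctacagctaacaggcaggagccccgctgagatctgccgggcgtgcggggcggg

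The motif reads the same on both strands and was present in that window of 2113 of 27025 genes (7.82%). Of the 99 genes called higher in cluster 10 (0.913% of 10849 tested, in a fit described with the gene values), 83 had a RefSeq promoter, and 5 of them (6.02%) held it. The CRE motif TGACGTCA, which CREB binds and which shares no match with TGANTCA, was present before 478 genes (1.77%) and before 5 of the 83 (6.02%). The octamer ATGCAAAT, searched on both strands, was present before 490 genes (1.81%) and before 1 of the 83 (1.2%). Among the 14 of the 20 named genes with a promoter sequence, *Scgn* alone held AP-1, *Btg2* alone held CRE and none held the octamer. *Crh* and *Nr3c1* were not among the promoters used. These are matches of letters, not binding sites.

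The cells were unevenly spread over plates. Plate Q8 held 18 of them, plates Q6 and JM8 held 11 each, Q7 held 7, Q5 and AL5 held 5 each, JM6 held 3 and JM7 held 2. None of the 69 PVH cells of AL6 and none of the 46 of JM5 were in the cluster, which leaves upper limits of 5.21% and 7.71% (exact Clopper-Pearson, 95%). Sums per plate were made on the 7 plates with 3 or more cells, which hold 60 of the 62 cells and 447 cells of the other PVH clusters. All 96 well positions were used by more than 1 plate, and the 62 cells came from 51 positions.

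The name of the cluster held for most of its cells. *Crh* was detected in 53 of 62 cells (85.5%, exact 95% interval 74.2 to 93.1) against 101 of 602 other PVH cells (16.8%), and in 3 of 42 cells of the non-PVH clusters, which had a similar median of 107236 UMIs (107572 in cluster 10). *Scgn* was detected in 44 cells of cluster 10 (71.0%, interval 58.1 to 81.8) against 28 other PVH cells (4.65%) and 6 non-PVH cells. After each cell was thinned to 50000 UMIs the shares were 82.3% and 69.4% in cluster 10 against 13.3% and 2.99% in the other PVH cells. Both genes were present in 39 cells, *Crh* alone in 14, *Scgn* alone in 5 and neither in 4. Outside the cluster, 6 of 602 PVH cells held both.

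On plates Q5, Q6, Q7, Q8, AL5, JM6 and JM8, *Crh* stood at 1633, 707, 1291, 1375, 2914, 1517 and 2761 CPM in cluster 10. In the other PVH clusters of the same plates it stood at 25.6, 41.4, 36.4, 5.23, 82.1, 48.8 and 122 CPM. The lowest plate of cluster 10 was thus above the highest plate of the others, and the mean was 1743 ± 805 CPM (SD, n = 7 plates) against 51.7 CPM, a log2 difference of 5.19 (SE 0.53, edgeR quasi-likelihood test, adjusted p = 0.00386). The value on JM6 came from 1 of its 3 cells.

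*Scgn* stood at 195, 226, 116, 68.6, 139, 10.8 and 142 CPM in cluster 10 on the same 7 plates. In the other clusters it stood between 0 and 9.57 CPM, with a median of 2.64 CPM. JM6 was the low plate, with *Scgn* in 1 of 3 cells, and it still lay above all plates of the other clusters. The log2 difference was 5.79 (SE 0.66, edgeR, adjusted p = 1.36e-05).

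**Figure D1:**
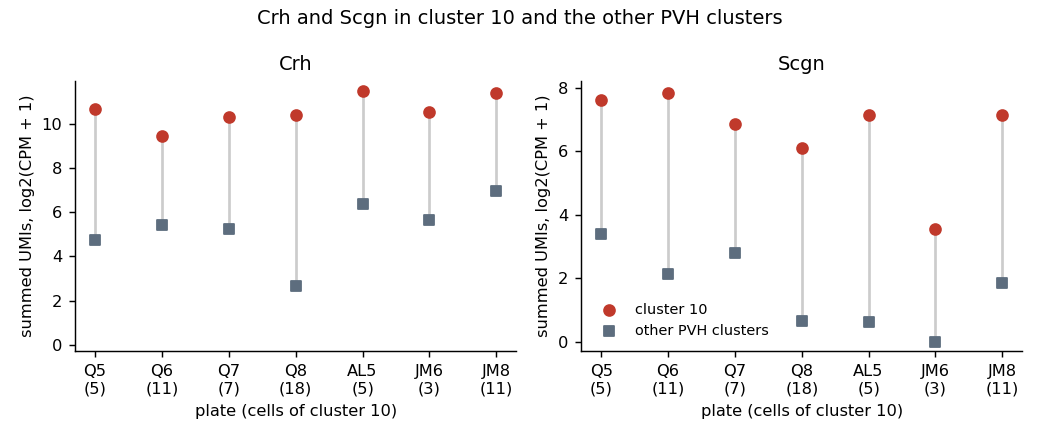
Summed UMIs of Crh (left) and Scgn (right) on each of the 7 plates, as log2(CPM + 1), in cluster 10 (red circles) and in the other PVH clusters (grey squares), with the number of cells of cluster 10 under each plate. Every red point lies above every grey point, and JM6, with 3 cells, is the lowest for Scgn at 10.8 CPM.

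Within the cluster, *Crh* ran from 0 UMIs in 9 cells through a median of 1317 CPM to 6919 CPM in the highest cell, and 37 of 62 cells were over 1000 CPM. Another 3 cells held under 20 CPM. The 9 cells without *Crh* had a median of 96112 UMIs, against 108442 in the cells with it. All 9 held *Nr3c1*, 8 held *Fam159a* and 5 held *Scgn*. They lay on Q plates (5 cells) and on AL and JM plates (4 cells).

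*Crh* was also present in PVH clusters 13 and 14. Summed per plate, cluster 14 had 522 ± 236 CPM (8 plates) with *Crh* in all of its 57 cells, and cluster 13 had 465 ± 735 CPM (3 plates) with *Crh* in 43.8% of its 16 cells. Each remaining PVH cluster averaged at most 20.8 CPM. *Scgn* was detected in 0 of 16 cells of cluster 13 and in 1 of 57 cells of cluster 14, and the next cluster after 10 was cluster 2 at 18 ± 18.9 CPM (5 plates). On the 5 plates that held both, *Crh* was higher in cluster 10 than in cluster 14 on each, at 1291 to 2914 CPM against 230 to 935 CPM.

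**Figure D2:**
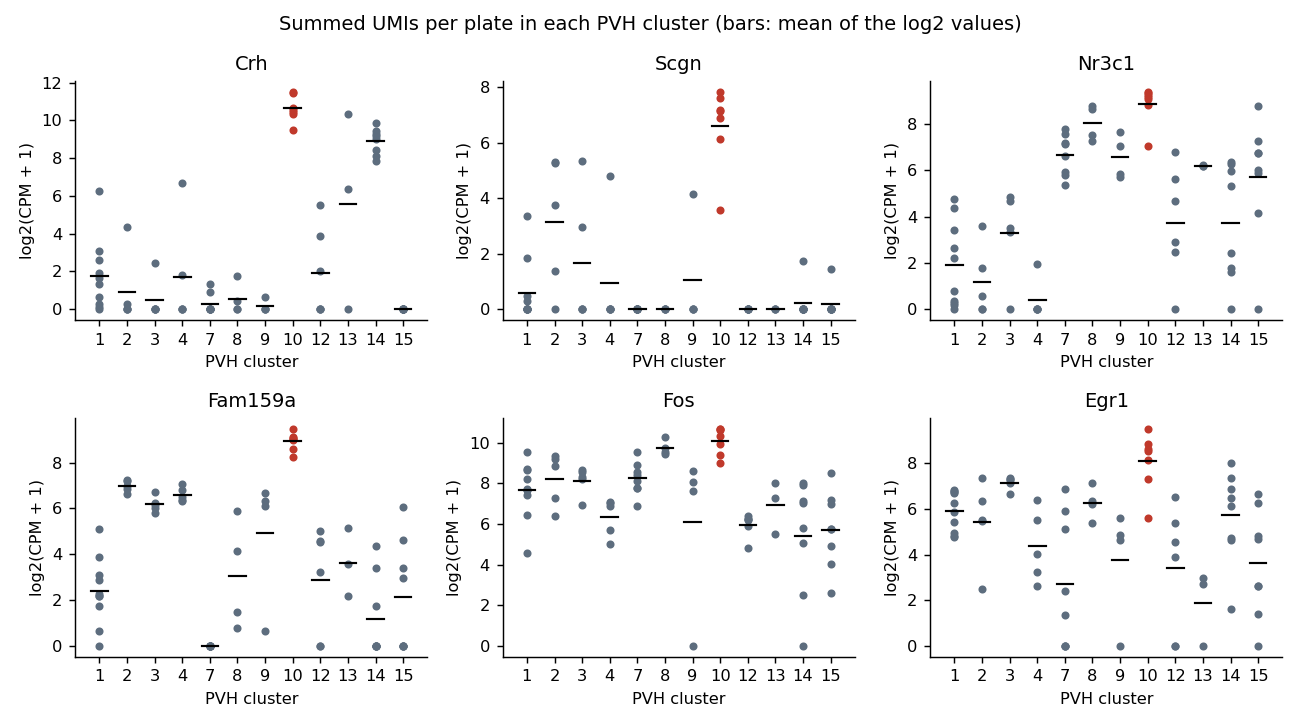
Level of 6 genes in each PVH cluster, as log2(CPM + 1) of the UMIs summed on a plate. Each point is a plate with 3 or more cells of the cluster, bars are means, and red marks cluster 10, whose mean is the highest in every panel. Clusters 13 and 14 also hold Crh, and cluster 8 is next for Nr3c1 and Fos.

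The fit of cluster 10 against the other PVH clusters, with the plate as a block, covered 10849 genes. At an adjusted p under 0.05, 99 genes (0.913%) were higher and 385 (3.55%) were lower. The median log2 difference over all genes tested was -0.64, and it was -0.16 over the 2006 genes with a mean of 100 CPM or more, so values should be read against that shift. Among those abundant genes 76 were higher and 93 lower. Without the oxytocin cluster 1 and the vasopressin clusters 2 and 3, 62 of the 99 genes were called higher and 97 had the same direction. That comparison still held cluster 4, with 50763 CPM of *Avp*, and cluster 12, with 12960 CPM of *Oxt*.

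The 20 genes with the largest difference, of 88 that were called, higher on all 7 plates and at 20 CPM or more, began with *Scgn*, *Cpne9* and *Crh*. All 20 had their highest mean in cluster 10 among the 12 PVH clusters, which the rule that chose them favoured. Of these, 10 genes (*Crh*, *Scgn*, *Fam159a*, *Nr3c1*, *Arhgap36*, *Bcl11a*, *Ramp1*, *Nrn1*, *Btg2* and *Pgf*) were called under each of the 19 alternative fits. The other 10 were not called under at least 1 of them. Ranges given below for the other clusters are of all their cells summed on a plate, and single clusters can lie above them.

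**Figure D3:**
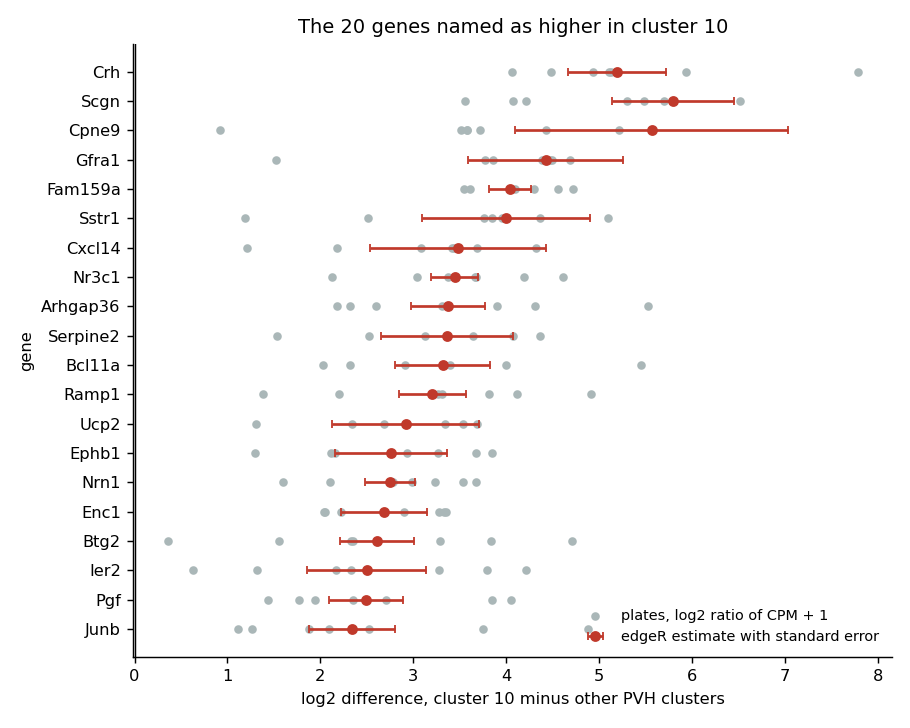
Log2 difference between cluster 10 and the other PVH clusters for the 20 named genes. Red points with bars are edgeR estimates with their standard errors and grey points are the 7 plates, as log2 ratios of CPM + 1; every grey point lies above 0, and the low outlying points are AL5 for Cpne9 (0.92) and Q5 for Gfra1 (1.53).

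The gene that separated the cluster most evenly over plates was *Fam159a* (RefSeq symbol *Shisal2a*), which encodes a Shisa-like membrane protein. It ran from 301 CPM on JM6 through a median of 526 to 715 CPM on Q8, against 14.3 to 60.4 CPM in the other clusters summed together. It was detected in 58 of 62 cells (93.5%) and in 24.1% of the other PVH cells. The vasopressin clusters 2, 4 and 3 held it at 127, 98.5 and 73.3 CPM, in 73.6%, 77.3% and 77.8% of their cells. The log2 difference was 4.04 (SE 0.22, edgeR, adjusted p = 8.38e-11), the smallest SE of the 20 genes.

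*Nr3c1*, the glucocorticoid receptor, was detected in 61 of 62 cells, against 146 of 602 other PVH cells (24.3%) and 33 of 42 non-PVH cells (78.6%). On plates Q5, Q6, Q7, Q8, AL5, JM6 and JM8 it stood at 652, 455, 616, 567, 130, 538 and 668 CPM, against 25.8, 34.8, 74.3, 43.9, 29.1, 28.5 and 63.4 CPM in the other PVH clusters. AL5 was the low plate, and the groups did not overlap when the other clusters were summed together. Cluster 7 alone stood at 138 CPM on AL5, above cluster 10. The log2 difference was 3.44 (SE 0.26, edgeR, adjusted p = 2.41e-08). Cluster 8 came next at 294 ± 147 CPM (4 plates), then clusters 7, 15 and 9 between 110 and 118 CPM, while the oxytocin cluster 1 had 6.54 ± 9.23 CPM (10 plates) and the vasopressin cluster 2 had 2.83 ± 4.81 CPM.

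Of the 13 tested genes among 15 listed as corticosteroid receptors, their chaperones and known glucocorticoid targets, *Nr3c1* was the single gene called higher, and none were called lower. Over all genes tested, 0.913% were called higher and 3.55% lower. The median log2 difference of the list was 0.34, against -0.64 for all genes. The target *Fkbp5*, a co-chaperone that the receptor induces, was at 33.1 ± 44.2 CPM against a mean of 13.6 CPM (log2 difference 0.07, adjusted p = 0.99, edgeR). The target *Klf9* was higher on 6 of 7 plates (log2 difference 1.87, adjusted p = 0.095) and *Dusp1* on all 7 (1.01, adjusted p = 0.093), both short of the threshold. The chaperones *Hsp90ab1* and *Hsp90aa1* differed by -0.12 and -0.14. The mineralocorticoid receptor gene *Nr3c2* was detected in 9 cells (14.5%), against 6.64% of the other PVH cells.

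Immediate early genes are transcribed within minutes of stimulation, and their list had the highest median difference of those with more than 1 tested gene. Of 9 tested genes (10 listed), 6 were called higher and none lower (*Fos*, *Fosb*, *Junb*, *Egr1*, *Npas4* and *Ier2*), where 0.913% of all genes tested were called higher, and the median log2 difference was 2.21. Of the 19 alternatives, 8 lost the call of *Fosb*, 8 that of *Ier2* and 5 that of *Junb*, and at most 2 lost that of each of the other 3. Of the 3 others, *Arc* (3.18, adjusted p = 0.058) and *Nr4a1* (1.85, adjusted p = 0.23), had large standard errors, and *Jun* differed by 0.72 (adjusted p = 0.083).

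*Fos*, a subunit of AP-1, was detected in all 62 cells and in 422 of 602 other PVH cells (70.1%). It stood between 511 CPM on JM6 and 1650 CPM on Q6, with a median of 1291 CPM, against 52.9 to 686 CPM in the other clusters, and it was higher in cluster 10 on all 7 plates although the ranges met. *Egr1*, a zinc-finger transcription factor, was at 47.6, 372, 279, 159, 728, 463 and 396 CPM on plates Q5, Q6, Q7, Q8, AL5, JM6 and JM8, against 27.6 to 88.2 CPM. Q5 was the low plate, and the other 6 lay above all plates of the other clusters. *Npas4*, which calcium entry induces in neurons, was at 93.0 CPM or more on 6 plates and at 0 in the 3 cells of JM6, against 1.10 to 57.7 CPM.

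*Junb* was between 242 and 1632 CPM, against 41.9 to 300 CPM. Of the 10 listed genes, 7 had their highest mean in cluster 10 among PVH clusters. Cluster 8, handled on the same plates, came next for *Fos* at 887 ± 245 CPM (4 plates) and for *Junb* at 285 CPM, and it held *Egr1* at 83.0 CPM. On the 4 plates that held both clusters, *Fos* ranged from 681 to 1650 CPM in cluster 10 and from 701 to 1241 CPM in cluster 8, and cluster 10 was higher on 3 of them. The slices were digested before picking, and the part of that step in these values was not tested.

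Of the 20 genes, *Ramp1*, *Sstr1*, *Gfra1* and *Ephb1* encode receptors or receptor subunits of the cell surface, a grouping made after the values were seen. *Ramp1*, the subunit that makes the calcitonin receptor-like receptor respond to CGRP, was at 144 to 491 CPM, with a median of 313, against 9.0 to 80.9 CPM. Cluster 8 held nearly as much, 240 ± 88.5 CPM. *Sstr1*, a somatostatin receptor, was at 4.10 to 123 CPM against 0.742 to 5.0 CPM, so the ranges met at JM8, its lowest plate, where 2 of 11 cells held it. Cluster 9 came next for *Sstr1* at 36.1 ± 33.0 CPM (4 plates), with the gene in 40% of its cells against 35.5% in cluster 10. *Gfra1*, the co-receptor of GDNF, was at 6.14 CPM on Q5 and at 21.5 to 178 CPM on the others, against 0 to 7.05 CPM. *Ephb1*, an ephrin receptor, was at 36.9 to 242 CPM against 4.83 to 18.6 CPM.

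Besides *Crh*, genes of the 20 for secreted or surface-anchored proteins included *Pgf* (a VEGF relative, 108 to 273 CPM against 10.1 to 60.1), *Nrn1* (neuritin, which promotes neurite growth, 144 to 667 CPM against 29.6 to 80.4), *Serpine2* (a protease inhibitor, 32.4 to 203 CPM against 1.67 to 14.6) and *Cxcl14* (a chemokine, 5.38 to 93.6 CPM against 0.976 to 10.2). The groups overlapped for *Cxcl14* alone. Cluster 7 came next for *Pgf* at 131 ± 96.7 CPM (8 plates), with the gene in 65.7% of its cells. *Cpne9*, a copine of the calcium-dependent membrane-binding family, was a low gene, detected in 19 of 62 cells, at 2.90 to 54.7 CPM against 0 to 3.88 CPM. *Arhgap36*, which binds and inhibits the catalytic subunit of protein kinase A, was at 43 to 500 CPM against 7.42 to 30.8 CPM, although only 29 of 62 cells held it. Its highest cell reached 1360 CPM while 33 cells had none. Cluster 15 came next for *Arhgap36* at 145 ± 141 CPM (8 plates), with a highest plate of 445 CPM.

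*Enc1*, which encodes an actin-binding protein of neurons, was at 60.3 to 274 CPM against 10.8 to 27.4. Cluster 15 came next for *Enc1* at 61.8 ± 79.0 CPM (8 plates), with a highest plate of 216 CPM. The gene was in 56% of cells of cluster 9, against 46.8% in cluster 10. *Ucp2*, a mitochondrial carrier, was at 18.7 to 91.6 CPM against 3.42 to 11.9. The early response genes *Btg2* and *Ier2* were at 32.3 to 684 CPM against 9.62 to 113 and at 38.7 to 165 CPM against 5.76 to 24.6, and the ranges met for *Btg2*. The call for *Ucp2* was lost under 12 of the 19 alternatives.

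Of 18 transcription factors of hypothalamic neurons tested among 22 listed, 1 was called higher (*Bcl11a*) and 2 lower (*Foxp2* and *Rorb*), against 0.913% and 3.55% of all genes tested. The list median was -0.27. *Bcl11a*, a zinc-finger repressor, was detected in 44 cells (71.0%) and stood between 96.4 and 237 CPM, against 1.83 to 28.4 CPM. The vasopressin clusters 3, 2 and 4 followed with 73.3, 51.8 and 50.2 CPM. *Foxp2* was present in 1 of 62 cells, on Q7, against 57.0% of other PVH cells. *Otp*, which is needed to form these neurons, was in 56 of 62 cells (90.3%) and differed by -0.27 (SE 0.17), and *Sim1*, another such factor, was in 25 cells (40.3%) against 62% (-0.94, SE 0.70, adjusted p = 0.49, edgeR).

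Among the 7 genes of the CRH system, *Crh* itself passed the filter on low counts. The urocortins (*Ucn*, *Ucn2*, *Ucn3*), both receptors (*Crhr1*, *Crhr2*) and the binding protein *Crhbp* were detected in 0 of 62 cells each. A count of 0 allows up to 4.84% of cells with a UMI (3 counts, counting error only) and sets no limit on the share that express the gene. In the other PVH cells *Crhr1* was detected in 28 (4.65%) and *Crhr2* in 20 (3.32%).

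Of 20 neuropeptide precursor genes, 12 were tested, none was called higher, and *Oxt*, *Sst*, *Pdyn* and *Adcyap1* were called lower, where 3.55% of all genes tested were. The list median was -2.62. The call of *Sst* was lost under 10 of the 19 alternatives and that of *Pdyn* under 6. The study's own panel of 12 marker genes was chosen on these cells and is not independent of them. In it, *Crh* was higher, and *Oxt*, *Sst*, *Pdyn* and *Npy1r* were lower. *Npy1r*, a receptor for neuropeptide Y, was found in 2 of 62 cells (3.23%) against 75 of 602 (12.5%). Its scarcity was shared with other clusters, with 0 cells in clusters 2, 4 and 9 and 1.81% of cells in cluster 1. Clusters 7, 8 and 13 held it in 85.7%, 38.1% and 87.5% of their cells.

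*Adcyap1*, the precursor of PACAP, was in 1 cell against 175 of 602. *Oxt* was detected in 61 of 62 cells, but it was also found in 98.8% of the other PVH cells and in 40 of 42 non-PVH cells, so detection of this transcript cannot be read as expression. Its level was 60.1 to 729 CPM, against 66959 ± 17304 CPM in oxytocin cluster 1 and 98.0 ± 62.8 CPM in cluster 13, the lowest.

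*Avp* was detected in all 62 cells, as in 42 of 42 non-PVH cells, so again only its level is informative. On plates Q5, Q6, Q7, Q8, AL5, JM6 and JM8 it stood at 356, 1354, 530, 813, 1389, 8364 and 1870 CPM in cluster 10. In 6 PVH clusters of the same plates (7, 8, 9, 13, 14 and 15, taken after the values were seen because they are low in both peptides), it stood at 342, 68.7, 90.2, 213, 101, 101 and 94.3 CPM. Cluster 10 was higher on each plate, a direction that the choice of clusters low in *Avp* largely fixed, so these values are a description. The sums rested on few cells. On Q6 the median cell held 79.6 CPM against 57.7 CPM, and over plates the median cell ran from 79.6 to 8733 CPM in cluster 10 against 25.8 to 181 CPM. *Oxt*, by which those clusters were chosen too, was higher in cluster 10 on 4 of the 7 plates. The ratio of *Avp* to *Oxt* UMIs had a median of 3.99 over plates in cluster 10 (range 0.488 to 91.5) and 0.63 in those clusters (0.0700 to 1.26). Against all other PVH clusters, which include the vasopressin clusters, *Avp* was lower on 6 of 7 plates (log2 difference -3.57, SE 0.77, adjusted p = 0.060, edgeR), and the call was gained under 5 of the 19 alternatives. Without clusters 1, 2 and 3, where vasopressin cluster 4 was still compared, the difference was 0.61 (adjusted p = 0.84, edgeR).

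The level of *Avp* differed widely from cell to cell. The median cell held 459 CPM, 23 of 62 cells were over 1000 CPM and the highest had 18473 CPM. By a limit of 4000 CPM, set after the values were seen, 7 cells were high in *Avp*. Of these, 1 had *Crh* at 100 CPM or more, 4 had no *Crh*, and 6 were on JM plates. On JM6, 2 of the 3 cells were of this kind and *Crh* was in the other, so sums for that plate rest on unlike cells. Without JM6, the log2 differences of *Crh* and *Scgn* were called as before.

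**Figure D4:**
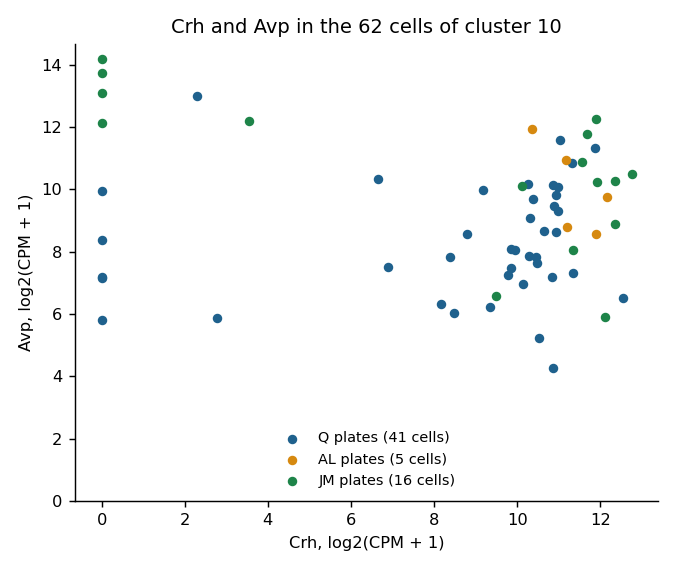
Crh (x) and Avp (y) in each of the 62 cells of cluster 10, as log2(CPM + 1), coloured by plate prefix. Most cells sit at the right with Crh over 1000 CPM and Avp spread over a wide range, while 9 cells have no Crh, and 4 of those are JM cells with Avp over 4000 CPM.

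Other peptides marked single cells. *Penk* was over 200 CPM in 10 cells, 9 of them on Q plates, and 8 of the 10 also had *Crh* at 100 CPM or more. *Trh* was over 400 CPM in 3 cells and *Sst* over 500 CPM in 3 cells, all on Q plates. Summed *Penk* was 200.7 ± 265 CPM, 0 on AL5 and JM6 and 738 CPM on Q5. It was above the other clusters on 4 of 4 Q plates and below them on 3 of 3 AL and JM plates. The log2 difference of 0.44 (SE 1.67, adjusted p = 0.92, edgeR) turned negative in 6 of the 19 alternative fits. On Q plates alone it was called higher (2.56, edgeR adjusted p = 0.0386) and on AL and JM plates alone lower (-4.36, edgeR adjusted p = 4.55e-05), and the difference between prefixes was not tested. *Sst* was listed in 42 of 62 cells, but its median cell held 13.6 CPM, and 26 of 42 non-PVH cells also held it.

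Of 18 genes of peptide processing and dense-core granules tested, 2 were called higher (*Scg2* and *Resp18*) and 2 lower (*Pam* and *Cadps2*), against 0.913% and 3.55% of all genes. The median difference was 0.02, and the call of *Resp18* was lost under 8 of the 19 alternatives. *Scg2*, secretogranin II, was at 2004 to 7769 CPM against 981 to 3065 CPM, and at 113 CPM in cluster 1. Without clusters 1, 2 and 3 its difference was -0.28. Clusters 8, 7, 9 and 13 had higher means than the 5021 CPM of cluster 10. Clusters 15, 14 and 12 had lower means (3544, 2880 and 2140 CPM), and cluster 10 was above cluster 14 on 5 of 5 shared plates. *Pam*, the enzyme that amidates peptides, was at 96.8 to 398 CPM against 349 to 669 CPM. *Cadps2*, which helps to prime granules, was at 0 to 43.5 CPM against 70.2 to 159 CPM. The prohormone convertase *Pcsk1* was lower on 7 of 7 plates (log2 difference -2.92, adjusted p = 0.052) and *Pcsk2* was higher on 6 (0.87, adjusted p = 0.078).

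Among 13 tested EF-hand genes, *Scgn* was called higher and *Calb2* and *Ncald* lower, against 0.913% and 3.55% of all genes tested. The list median was -0.88. *Calb2*, calretinin, was in 5 of 62 cells (8.06%) against 59.6% of the other PVH cells, and *Calb1*, calbindin, was in 59 of 62 cells (95.2%) with a difference of 0.23 (SE 0.16). None of 15 tested genes of cAMP and CREB signalling was called in either direction (median -0.48).

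Among transmitter genes, *Slc17a6*, the vesicular glutamate transporter, was in 39 of 62 cells (62.9%), and on AL5, its lowest plate, it stood at 52.2 CPM and on Q7, its highest, at 197 CPM, against 76.2 to 263 CPM (log2 difference -0.23, SE 0.34, adjusted p = 0.75, edgeR). The GABA genes *Slc32a1* and *Gad1* were in 0 cells. *Gad2* was in 15 cells (24.2%) against 13% (1.21, SE 1.25). Of 6 tested genes in the list, *Th* and *Nos1* were called lower, where 3.55% of all genes tested were. *Th*, which makes the precursor of dopamine, was in 7 cells (11.3%) against 54.2%, and *Nos1*, neuronal nitric oxide synthase, in 17 cells (27.4%) against 68.9%.

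Receptors that could carry inputs were mostly sparse. Of 31 genes for receptors of hormones, peptides and monoamines, 15 were in 0 of 62 cells and 13 were tested. *Npy1r*, *Oprk1*, *Avpr1a* and *Ptger4* were called lower and none higher, against 3.55% and 0.913% of all genes tested. The call of *Oprk1* was lost under 8 of 19 alternatives and that of *Avpr1a* under 9 of the 17 in which it was tested. The alpha-1B adrenergic receptor gene *Adra1b*, which responds to noradrenaline, was higher on 7 of 7 plates and in 16 of 62 cells (25.8%) against 20 of 602 (3.32%), with a log2 difference of 4.49 (SE 1.3, adjusted p = 0.050232), just outside the threshold. *Adra1a* showed the opposite pattern, with 0 of 62 cells against 90 of 602 (15%). Among receptor subunit genes for GABA and glutamate, *Grin3a* was called higher (58.1% of cells, log2 difference 1.16, SE 0.32) and *Gabra5* lower. The call of *Grin3a* was lost under 11 of the 19 alternatives (adjusted p up to 0.37).

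The genes that were lowest in cluster 10 were absent from its sums. The 10 named by the rule (*Rxfp3*, *Pde1c*, *Galnt14*, *Klhdc8a*, *Cckar*, *Creg2*, *Gsg1l*, *Cbln2*, *Gpc3* and *Thsd7b*) had 0 UMIs over the 7 plates. Against a limit of 3 UMIs over those plates (0.406 CPM), they were at least 60.4-fold (*Thsd7b*) to 110-fold (*Rxfp3*) lower. Among all 62 cells, *Klhdc8a* and *Gpc3* were found in 1 cell each and the other 8 genes in none. None of the 10 was called under all 19 alternatives. Without clusters 1, 2 and 3, 5 of them passed the filter, and those were called lower.

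*Rxfp3*, the relaxin-3 receptor, was in 251 of 602 other PVH cells (41.7%) and highest in oxytocin cluster 1 (132 CPM). *Cckar*, a cholecystokinin receptor, was highest in clusters 12 and 14. *Cbln2*, a synapse organiser, was in 58 other cells (9.63%) and was highest in cluster 9, where 96.0% of cells held it. Absence of some of these genes was shared with other clusters. *Cbln2* was in 0 cells of clusters 3, 8 and 12, and *Cckar* in 0 cells of clusters 2, 3 and 9. *Galnt14* and *Gsg1l* were in 0 cells of cluster 13. Of all 385 genes called lower, 58 had no UMI in the sums of cluster 10. Without clusters 1, 2 and 3, 254 of the 385 passed the filter and 121 were called lower.

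Cells of cluster 10 gave fewer UMIs than their neighbours on the same plates. The plate median of total UMIs per cell ran from 63337 on AL5 to 183717 on Q6, and it was below the median of the other PVH cells on 7 of 7 plates. Averaged over plates it was 107336 ± 45680 against 206496 ± 99084 UMIs, a ratio of 0.542 (log2 difference -0.88 ± 0.34 SD, two-sided exact permutation test that swaps the sides within plates, p = 0.0156, the smallest that 7 plates allow, adjusted over 4 measures p = 0.0208).

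The ratio of gene UMIs to spike-in UMIs, which follows the amount of RNA in the lysed cell, was 6.06 ± 2.70 against 11.3 ± 4.08 and lower on 7 of 7 plates (log2 difference -0.92 ± 0.21 SD, exact permutation p = 0.0156, adjusted p = 0.0208). At 50000 UMIs per cell, 3661 ± 583 genes were detected against 4426 ± 492 (log2 difference -0.28, lower on 7 of 7 plates, the same exact p). The mitochondrial share was 3.49% ± 0.72 against 3.30% ± 0.39 and higher on 5 of 7 plates (exact permutation p = 0.39).

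The cells compared with include the oxytocin cells of cluster 1, which had more UMIs than the rest on 10 of 10 plates (mean log2 difference 0.65). Without clusters 1, 2 and 3 the log2 differences were -0.50 for total UMIs, -0.51 for the spike-in ratio and -0.18 for genes at equal UMIs, each with an adjusted exact p of 0.0208. Among the 12 PVH clusters, each compared with the rest of its plates, cluster 10 had the most negative mean log2 difference in total UMIs (-0.88), before cluster 8 (-0.58, 4 plates) and cluster 15 (-0.46, 8 plates). Those differences between clusters were not tested.

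**Figure D5:**
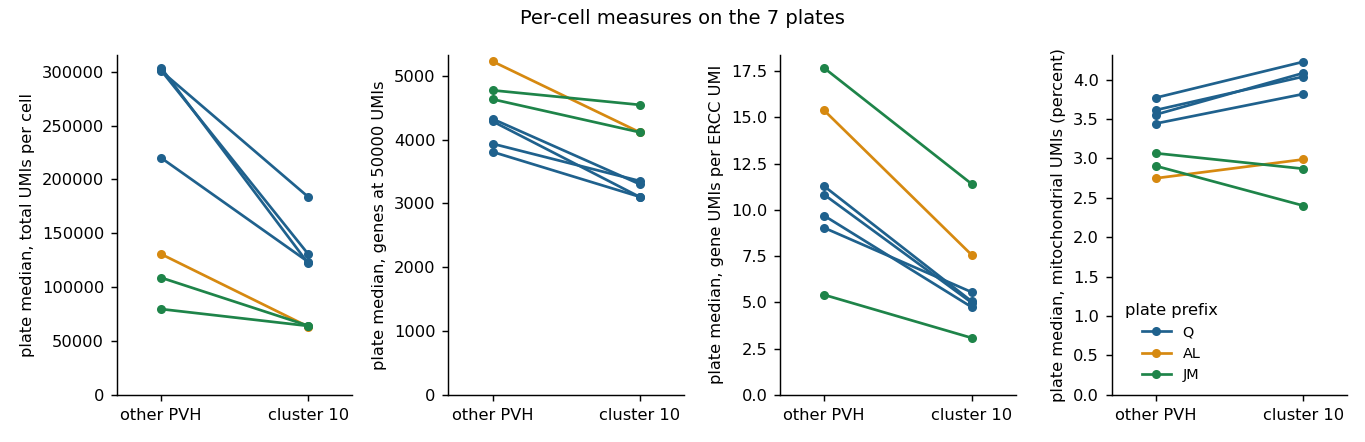
Plate medians of 4 per-cell measures in the other PVH clusters (left end) and in cluster 10 (right end), with 1 line per plate and colours for the plate prefix. Lines fall on all 7 plates for total UMIs, genes at 50000 UMIs and the ratio of gene to spike-in UMIs, and rise on 5 and fall on 2 for the mitochondrial share.

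The share of cluster 10 among PVH cells was 13.4% ± 7.21 on the 4 Q plates and 5.53% ± 6.12 on the 6 AL and JM plates. The difference of 7.86 percentage points did not pass when plates were permuted between prefixes (exact and two-sided, p = 0.10, adjusted over 3 comparisons p = 0.15). The result depended on JM8, where 16.7% of PVH cells were in the cluster. Without that plate the difference was 10.1 points with an unadjusted exact permutation p of 0.0159. The level of *Crh* in the cluster was lower on Q plates by 0.94 on the log2 scale (means of 10.2 and 11.2, n = 4 and n = 3, exact permutation p = 0.0857, smallest possible p 0.0286). As a mean over cells the difference was -0.22 (exact permutation p = 1). *Scgn* differed by 1.2 (exact permutation p = 0.40), and that sign turned without JM6.

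Plate by plate, cells were matched to the PVH cluster with the best correlated mean profile on the remaining plates, over 2000 variable genes. By this rule 57 of 62 cells (91.9%, exact interval 82.2 to 97.3) returned to cluster 10. Of the other 5, 3 went to vasopressin cluster 3 and 2 to cluster 8. All cells of Q7, Q8, AL5 and JM8 returned, and 1 of 3 on JM6 and 1 of 2 on JM7 did. Leaving *Crh* and *Scgn* out of the genes gave the same 57 cells. In the other direction, 8 of 602 PVH cells were assigned to cluster 10, 6 from cluster 8 and 2 from cluster 15. The clusters were built from all of these cells, so this describes how alike the plates are and is not a test of the cluster.

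The mean profile most like that of cluster 10 was that of cluster 8 (Pearson r = 0.62 across 2000 genes, which are not independent), followed by cluster 2 (r = 0.57), whereas clusters 14 and 13, which also hold *Crh*, were at 0.35 and 0.32. Clusters lay on different plates, and the 4 plates of cluster 8, all Q, held 41 of the 62 cells. On shared plates alone r was 0.65 for cluster 8, 0.56 for cluster 2 (5 plates), 0.38 for cluster 14 (5 plates) and 0.26 for cluster 13 (2 plates). Cluster 8 is rich in *Sst* (9691 CPM, against 359 CPM in cluster 10 on the 4 shared plates) and had 0.669 CPM of *Crh*. On those 4 plates, 16 of the 20 named genes were higher in cluster 10 on each plate. The 20 genes were chosen as higher on every plate against clusters that include cluster 8, so this direction was largely fixed. *Nr3c1* was 573 CPM against 294 CPM and higher on each, while *Ramp1*, *Arhgap36*, *Btg2* and *Junb* were higher on 3. *Npy1r* was at 45.0 CPM in cluster 8 and 0.229 CPM in cluster 10. With 4 plates an exact test cannot give a p below 0.125, and none was made.

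Most markers of other cells were not detected in cluster 10. Of 17 markers of glia, vessels and neurons of neighbouring nuclei, 10 were in 0 of 62 cells, among them *Agrp*, *Kiss1*, *Mog*, *Olig2* and *Cldn5*. *Pomc* was the most frequent, in 19 cells (30.6%) against 43.2% of the other PVH cells. Their summed level was 0 to 103 CPM over plates in cluster 10 against 11 to 53.3 CPM, with medians of 43.6 and 41.6 CPM. It was higher in cluster 10 on 5 plates and lower on 2. Without *Pomc* the sum was 0 to 61.5 CPM against 0.299 to 8.37 CPM, with medians of 0.416 and 3.83 CPM. That sum was higher in cluster 10 on 2 plates and lower on 5.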

How the data were processed

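Single cells were lysed and reverse transcribed with barcoded primers (Smart-SCRB), and the authors deposited raw UMI counts per gene (48397 genes) and per ERCC spike-in (92) for each well, not normalized, with an annotation of the cells that passed quality control. The submitters' processing notes name Trimmomatic 0.36, STAR 2.5.3a and GRCm38.p5; the counting tool and annotation are not given in the sources used here. Cells of cluster 10 were compared with the other PVH clusters (all but 5, 6 and 11). The members and gene lists were chosen with earlier results of these data known.

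UMIs were summed per plate and side where both had at least 3 cells, and fitted with edgeR 4.0.16 (TMM, filterByExpr, quasi-likelihood F test with robust dispersion, plate as a block, Benjamini-Hochberg adjustment) under R 4.3.3; DESeq2 1.42.0 and limma 3.58.1 were alternatives. The SE is the absolute log2 difference divided by the square root of F. Named genes were *Crh* and *Scgn*, up to 20 called genes that were higher on every plate at 20 CPM or more and up to 10 lower by the same rule, on-off genes (over 40% against under 5% of cells) and the listed genes. Single cells were thinned to 50000 UMIs, below the total of every cell. Plates were compared with exact two-sided permutation tests. Intervals are exact at 95% and cover counting error only. The plates, which may share animals or handling, are the only replicates, so p-values measure the spread between them. No doublet caller was run on these picked cells. Scripts used Python 3.11.15, numpy 2.4.6, pandas 2.3.3, scipy 1.17.1 and matplotlib 3.10.9 and were tested on simulated data. Gene locations are from GENCODE vM21 and RefSeq. Cluster membership values and well barcodes were not used. In the tests of single genes, 1 result is not reported here.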

Additional observations from a re-analysis of the deposited data

Results flagged for a closer look

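In 2 of 26 sets of plate values, 1 plate lay farther from the others than Dixon's limit at 95% allows, where chance gives about 1 in 20. For *Cpne9* the log2 ratio of cluster 10 over the other PVH clusters was 0.92 on AL5 and between 3.51 and 5.22 on the other 6 plates, and AL5 held it in 1 of 5 cells. For *Gfra1* the ratio was 1.53 on Q5 and between 3.77 and 4.68 on the others, and Q5 held it in 2 of 5 cells.

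Of 74 genes with values by plate, 2 had every Q plate on one side of 0 and every AL and JM plate on the other, and this difference between plate prefixes was not tested. The log2 ratio of *Penk* was 1.37 to 4.53 on the 4 Q plates and -7.93 to -2.55 on the 3 AL and JM plates, with means 7.97 apart. That of *Hsp90ab1* was 0.0308 to 0.301 and -0.293 to -0.0526, with means 0.34 apart.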

How the results depend on the processing

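*Crh* and *Scgn* stayed higher and past the threshold under all 19 alternative fits, and total UMIs, genes at equal UMIs and the spike-in ratio stayed lower and past it under every alternative tried. The numbers of genes called varied. In place of 99 higher and 385 lower, DESeq2 gave 236 and 1222, no filter on low counts 51 and 237, Q plates alone 31 and 29, and AL and JM plates alone 62 and 107. Lower genes numbered 215 without the plate block, 1373 with limma on mean CPM and 164 without clusters 1, 2 and 3. Leaving out 1 plate gave 61 (without Q6) to 90 higher and 227 (without AL5) to 367 lower genes, and without AL5 65 higher. The comparisons by single prefix, the scaling by total UMIs and the per-cell measures without clusters 1, 2 and 3 were chosen after seeing the data.

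Some directions turned, and the cause was not tested. Without clusters 1, 2 and 3, *Scg2* was at -0.28, *Avp* at 0.61, *Penk* at -0.96 and the mitochondrial share at -0.020. *Fkbp5* was at -0.0073 without the filter, -0.26 with limma, -0.32 on AL and JM plates, and between -0.66 and 0.77 with 1 plate left out. *Penk* was at -0.90 with limma, at 2.56 on Q plates (called higher) and -4.36 on AL and JM plates (called lower), and between -0.49 and 1.18 with 1 plate left out. *Slc17a6* was at 0.43 on Q plates. The Q minus other difference of *Scgn* was -0.15 as a mean over cells and -0.040 to 1.82 with 1 plate left out (lowest without JM6). The share difference was 4.82 to 10.3 points with 1 plate left out. The Q minus other difference of *Crh* was -0.22 as a mean over cells and -1.25 to -0.69 with 1 plate left out. Cluster 10 and the other clusters were compared within plates throughout, and no shared replicate numbers were there to pair, since all plates belong to 1 group.

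The 3 to 18 cells per plate limit the depth of the sums, in which 58 of the 385 genes called lower had no UMI.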
